A study of Danio rerio with 53 samples.

Results

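RNA splicing factor genes were followed across 10 sorted lymphocyte populations of zebrafish. The genes were every row of the deposited raw counts whose zebrafish symbol starts with srsf, snrp, sf3a, sf3b, u2af, hnrnp, prpf, lsm plus a digit or rbm plus a digit, whatever its measured level. This rule took 125 genes of the 14424 rows, namely 36 rbm, 24 hnrnp, 16 srsf, 15 lsm, 11 prpf, 11 snrp, 9 sf3 and 3 u2af genes. The symbol table held 134 symbols that match, of which 9 had no row. The rule reads only the start of a symbol, so it also took rbm and lsm genes that are known for work outside splicing. Symbols are spelled as in the symbol table, and 14 genes that share a symbol with another identifier carry the identifier after it.

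The 53 libraries came from 4 double transgenic lines, in which a red reporter under the rag2 promoter (rag2:RFP) or the lck promoter (lck:mCherry) was combined with a green reporter under a promoter of the B cell receptor genes (cd79a:GFP or cd79b:GFP). Every animal therefore carried 1 red and 1 green reporter, and the labels name no treatment and no age. Cells were sorted by flow cytometry from the lymphoid and precursor gates of thymus (29 libraries) and marrow (24 libraries). The rag2 lines, rag2-cd79b and rag2-cd79a, gave early B-committed cells (3 libraries), B Stage I (6) and B Stage II (6) from marrow, and T Stage II (6) and thymic B cells (6) from thymus. Early B-committed libraries 7 and 8 were of rag2-cd79b, and only library 36 was of rag2-cd79a. B Stage III (3, marrow) came from rag2-cd79b and T Stage I (6, thymus, 2 sorted populations called T2 and T3) from rag2-cd79a. The lck lines gave early T-committed cells (6, marrow) and thymic B cells (5), with T Stage III (3) and T Stage IV (3) from the thymus of lck-cd79a. A promoter chosen to mark a cell type also decides which cells enter the sort, so a population name stands for cells with that pair of colours. The labels number the libraries but do not say whether they come from separate animals, so p-values here measure the spread between libraries, which may be partly technical.

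Splicing removes introns from pre-mRNA in the spliceosome, which is built anew on each intron from small nuclear ribonucleoproteins (snRNPs). U1 binds the 5′ splice site, the U2AF pair binds the 3′ splice site, U2 with its SF3A and SF3B complexes binds the branch point, and the tri-snRNP of U4, U6 and U5 completes the machine. SR proteins (srsf genes) and hnRNPs bind the transcript itself and decide which sites are used. Lymphocytes rely on regulated splicing during development and activation, for example to choose isoforms of CD45 and of membrane and secreted immunoglobulin.

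A library held between 7295854 and 18778603 counts (median 11912824). Levels are given in CPM, a gene's share of its library's counts on 1 common scale. A count of 0 allows up to 3 counts, which amount to no more than 0.411 CPM, and this limit covers counting error only. Each transcript gives 1 tag at its 3′ end in this assay, so CPM were not divided by gene length. The T stages and the B cell types carried their markers. The summed level of 10 T cell marker genes averaged 2822 to 4998 CPM in the 4 T stages and at most 168 CPM in the B cell types, and that of 9 B cell marker genes averaged 1261 to 2532 CPM in the B cell types and at most 31.0 CPM in the T stages. Early T-committed cells had 1347 ± 504 CPM of T cell markers and 344 ± 174 CPM of B cell markers (SD, n = 6). In library 55 of these the B cell markers (467 CPM) exceeded the T cell markers (398 CPM). Erythroid marker genes (5 rows) reached 6855 ± 5937 CPM in early T-committed cells and 4672 ± 4490 CPM in early B-committed cells, against 49.6 ± 69.5 CPM in T Stage II.

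All 125 splicing genes passed the filter on low values (10 counts in 3 or more libraries), as every row of the table did. Their mean over the 10 cell types ran from 0.378 to 1674 CPM with a median of 63.2 CPM. Of the 125 genes, 38 averaged 100 CPM or more, 69 lay between 10 and 100 CPM and 18 lay under 10 CPM, and 42 were counted in every library. Together they took 0.785% to 2.27% of the counts of a library, with a median of 1.31%. The hnrnp family gave 38.6% of that sum, and the 5 highest genes (HNRNPA1L2, hnrnpa0l, U2AF1, hnrnpa0b and HNRNPAB_ENSDARG00000007960) gave 28.9%.

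The summed level of the splicing genes was highest in T Stage II, B Stage I, early B-committed cells and T Stage I, and lowest in thymic B cells, early T-committed cells and B Stage III. In T Stage II the 6 libraries ran from 18867 to 22711 CPM with a median of 20373 CPM. B Stage I followed with 15638 to 20718 CPM and a median of 18244 CPM, and its range overlapped that of T Stage II. The 3 early B-committed libraries lay between 16204 and 19397 CPM. T Stage I ran from 14861 to 19374 CPM with a median of 16808 CPM. These 4 populations overlapped one another in range. Below them came T Stage IV (10904 to 18508 CPM, n = 3), T Stage III (11397 to 13409 CPM, n = 3) and B Stage II (9444 to 13131.5 CPM, median 12008 CPM, n = 6), which overlapped one another too. B Stage III averaged 10604 ± 594 CPM (SD, n = 3). Early T-committed cells ran from 7854 to 13504 CPM with a median of 9879 CPM, and the 11 thymic B libraries from 8662 to 13310 CPM with a median of 9680 CPM. The ranges of T Stage II and B Stage I did not overlap those of thymic B cells, B Stage II or early T-committed cells. As a ratio of means, T Stage II stood 2.00-fold above thymic B cells, B Stage I 1.79-fold above thymic B cells and 1.56-fold above B Stage II, and early B-committed cells 1.68-fold above early T-committed cells. These ratios and the order above are of CPM and depend on the scaling. Dividing counts by median-ratio size factors lowered the relative level of T Stage II and T Stage I and raised that of B Stage III, as given under processing below. Early T-committed cells, T Stage III and T Stage IV came only from lck lines, and the other populations except thymic B cells only from rag2 lines. Line and cell type therefore cannot be told apart between these populations. A sum over chosen genes was not tested.

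**Figure D1:**
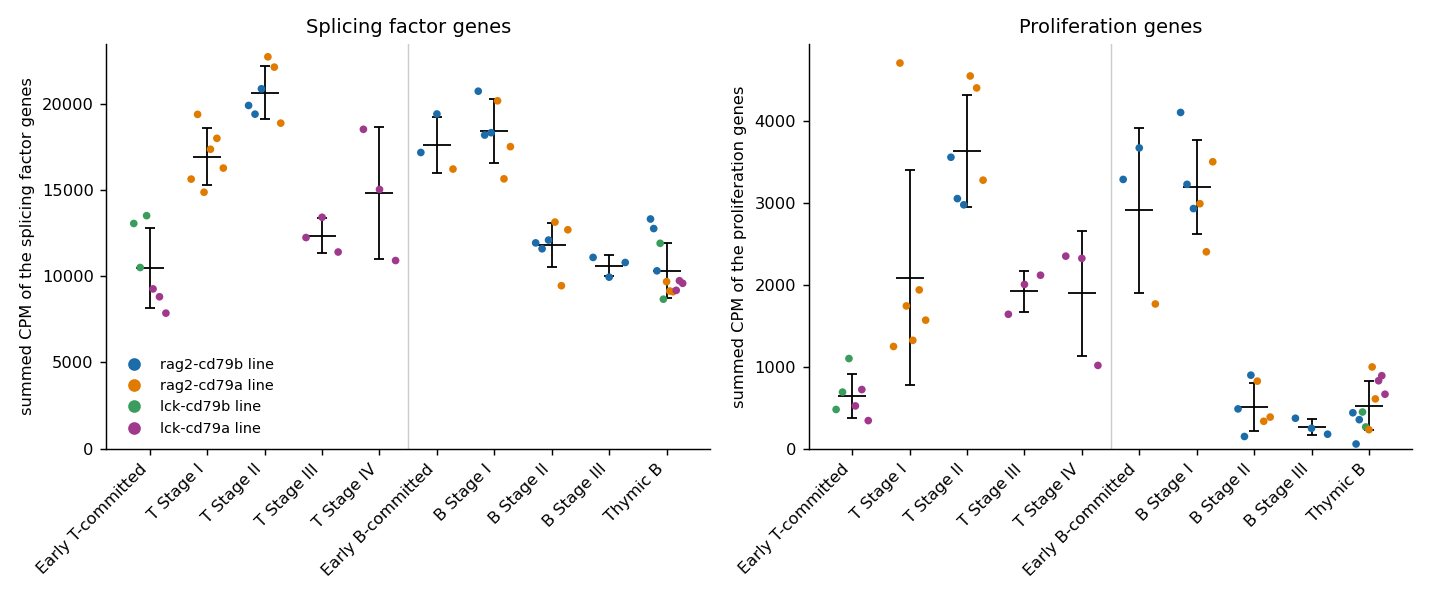
Summed CPM of the 125 splicing genes (left panel) and of the 17 rows of the proliferation list (right panel) in each library by cell type. Points are libraries coloured by line, and bars are means with SD. T Stage II (18867 to 22711 CPM) and B Stage I (15638 to 20718 CPM) lie above all thymic B libraries (8662 to 13310 CPM) in the left panel.

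Marker genes of cell division were also high in T Stage II, B Stage I and early B-committed cells. The summed level of the proliferation list (17 rows, among them mki67, pcna and the mcm genes) ran from 2977 to 4550 CPM in T Stage II, from 2403 to 4104 CPM in B Stage I and from 1766 to 3671 CPM in early B-committed cells. It ran from 148 to 897 CPM in B Stage II, from 177 to 371 CPM in B Stage III, from 342 to 1100 CPM in early T-committed cells and from 56.9 to 997 CPM in thymic B cells. T Stage III averaged 1921 ± 249 CPM and T Stage IV 1897 ± 762 CPM (SD, n = 3 each), with medians of 2005 and 2323 CPM. T Stage I ran from 1247 to 4708 CPM, with a median of 1656 CPM and a mean of 2088 CPM. The part of dividing cells in the splicing gene levels was not tested. In sorted bulk RNA, fewer cells of a type and less RNA per cell cannot be told apart. Library complexity differed as well: thymic B libraries held 6600 ± 1460 detected genes (n = 11) and T Stage II 9149 ± 1110 (n = 6), with 100 ± 11.7 and 114 ± 3.92 of the 125 splicing genes detected. The thymic B libraries of the rag2 lines held 3803 to 6739 detected genes, all below T Stage II (8449 to 11360). Those of lck-cd79a held 7892 to 8910, against 7818 to 8397 in T Stage IV of that line.

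As family sums, the snrp and u2af levels spread widest over the cell types and the rbm level least. The sums hold from 3 (u2af) to 36 (rbm) genes. A sum of many genes can hide large changes of single ones, such as RBM38 below. The summed u2af level was 3.55-fold higher in T Stage II than in early T-committed cells. These came from rag2 thymus and lck marrow, so cell type, line and organ cannot be told apart there. The summed snrp level was 3.30-fold higher in early B-committed cells than in B Stage III. The other families spread 2.30-fold (prpf), 2.26-fold (srsf), 2.09-fold (hnrnp), 2.07-fold (lsm), 1.79-fold (sf3) and 1.61-fold (rbm) between their highest and lowest cell type. Snrp sums averaged 2698 ± 741 CPM in early B-committed cells, 2619 ± 336 CPM in T Stage II and 2500 ± 470 CPM in B Stage I, against 817.5 ± 105 CPM in B Stage III and 947 ± 233 CPM in thymic B cells (SD). By gene, 38 of the 125 had their highest cell type mean in T Stage II, 26 in early B-committed cells, 14 in T Stage I and 8 in B Stage I. The lowest mean was counted in early T-committed cells for 29 genes, in B Stage III for 26, in thymic B cells for 24 and in B Stage I for none. Cell types tied at 0 were counted under 1 of them, with early T-committed cells taken first, so the 29 includes ties. LSM10 and LSM14B, for example, were at 0 in T Stage II as well as in early T-committed cells. A cell type mean rests on 3 libraries (as in early B-committed cells and B Stage III) to 11 libraries (thymic B cells). Means of fewer libraries vary more, so these counts are not on an equal footing between cell types. Among the 107 genes whose highest mean was at least 10 CPM and whose lowest exceeded the level of 3 counts, the highest mean was a median of 3.42-fold above the lowest.

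**Figure D2:**
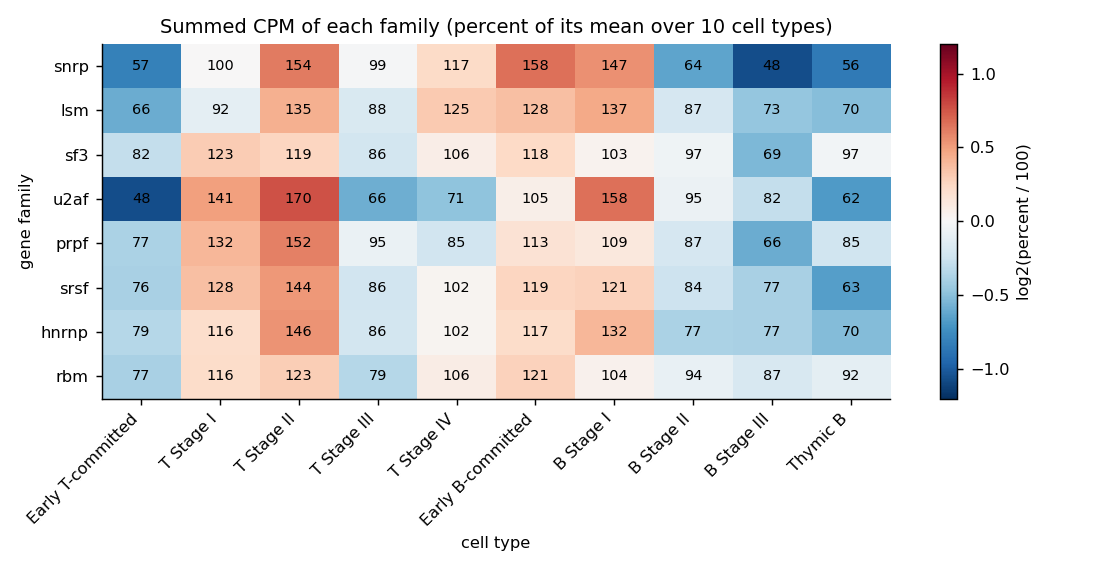
Summed CPM of each gene family in each cell type as a percent of the family's mean over the 10 cell types, with colour on a log2 scale. The snrp and u2af rows hold the widest range (3.30-fold and 3.55-fold from highest to lowest cell type) and the rbm row the narrowest (1.61-fold).

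The Sm proteins form the ring that most spliceosomal snRNAs carry. Several of their genes averaged more in T Stage II and B Stage I than in thymic B cells. SNRPF averaged 591 ± 90.0 CPM in T Stage II, 537 ± 105 CPM in early B-committed cells and 533 ± 139 CPM in B Stage I, but 154 ± 101 CPM in early T-committed cells and 157 ± 88.0 CPM in thymic B cells. SNRPB averaged 463 ± 89.9 CPM in T Stage II and 462 ± 124 CPM in B Stage I, against 141 ± 63.2 CPM in early T-committed cells and 199 ± 93.6 CPM in thymic B cells. SNRPD1 averaged 424 ± 80.5 CPM in T Stage II, 412 ± 105 CPM in B Stage I and 140 ± 87.0 CPM in thymic B cells. The genes differed in T Stage IV, where SNRPB averaged 470 CPM, SNRPF 311 CPM and SNRPD1 149 CPM. SNRPG, also an Sm gene, averaged 256 CPM there, against 110 CPM (rag2-cd79b) and 182 CPM (rag2-cd79a) in T Stage II. U2AF1, the small subunit that reads the AG of the 3′ splice site, averaged 1271 ± 172 CPM in T Stage II and 1261 ± 299 CPM in B Stage I, 977 ± 187 CPM in T Stage I, and 257 ± 73.3 CPM in early T-committed cells. The large subunit, which binds the pyrimidine tract, is present as 2 rows. U2AF2_ENSDARG00000011740 varied less, from 207 ± 10.5 CPM in B Stage III to 433 ± 60.6 CPM in T Stage II.

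SF3B1, the branch point subunit of U2, averaged 332 ± 84.4 CPM in T Stage I, 304 ± 191 CPM in B Stage II and 162 ± 63.7 CPM in early T-committed cells. SF3B2, of the same complex, averaged 302 ± 91.8 CPM in T Stage I and 84.6 ± 51.0 CPM in B Stage III. SF3A2, which joins SF3A to U2, had the smallest spread of these 107 genes, 1.69-fold between its highest and lowest cell type mean. Its 6 T Stage II libraries averaged 194 ± 52.0 CPM and its 6 B Stage II libraries 115 ± 17.4 CPM. Among the prpf genes, PRPF39, a U1-associated factor, averaged 262 ± 110 CPM in T Stage I and 65.8 ± 48.2 CPM in thymic B cells. PRPF4, a tri-snRNP protein, lay between 30.6 and 54.0 CPM in 9 cell types and at 0.996 ± 0.882 CPM in the 3 B Stage III libraries. LSM4 and LSM6, ring proteins shared by U6 and by a cytoplasmic decay complex, averaged 162 ± 74.8 and 211 ± 54.8 CPM in T Stage II and 94.9 ± 78.6 and 41.9 ± 35.0 CPM in thymic B cells. For LSM4 the rag2 lines went opposite ways. Thymic B cells averaged 189 CPM against 144 CPM in T Stage II in rag2-cd79b, and 50.9 against 180 CPM in rag2-cd79a. LSM1, which is specific to the decay complex, averaged 4.96 to 33.7 CPM, with SDs as large as the means in 5 of the 10 cell types.

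HNRNPA1L2, a relative of hnRNP A1, was the highest of the 125 rows at 2571 ± 637 CPM in T Stage II and 2499.7 ± 791 CPM in B Stage I, against 1046 ± 346 CPM in thymic B cells. For hnrnpa0l the mean was 1281 ± 206 CPM in T Stage IV, all of lck-cd79a, and 491 ± 114 CPM in B Stage III, all of rag2-cd79b. Its level also differed between lines within a cell type. T Stage II averaged 1304 CPM in rag2-cd79a and 828 CPM in rag2-cd79b, and B Stage II 842 and 531 CPM. Line and cell type therefore cannot be told apart in its order. Among SR protein genes, srsf5a averaged 422 ± 131 CPM in early B-committed cells and 198 ± 161 CPM in early T-committed cells. RBM39, a U2AF-related splicing cofactor, averaged 304 ± 63.1 CPM in T Stage II and 121 ± 93.5 CPM in early T-committed cells, while rbm4.2 stayed between 102 ± 63.0 CPM (B Stage III) and 236 ± 172 CPM (T Stage IV). RBM38, an RNA-binding protein known in mammals as a p53 target, stood apart in order. It averaged 264 CPM in thymic B cells, 241 CPM in B Stage II and 177 CPM in early B-committed cells, against 76.4 CPM in T Stage II and 13.1 CPM in early T-committed cells.

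**Figure D3:**
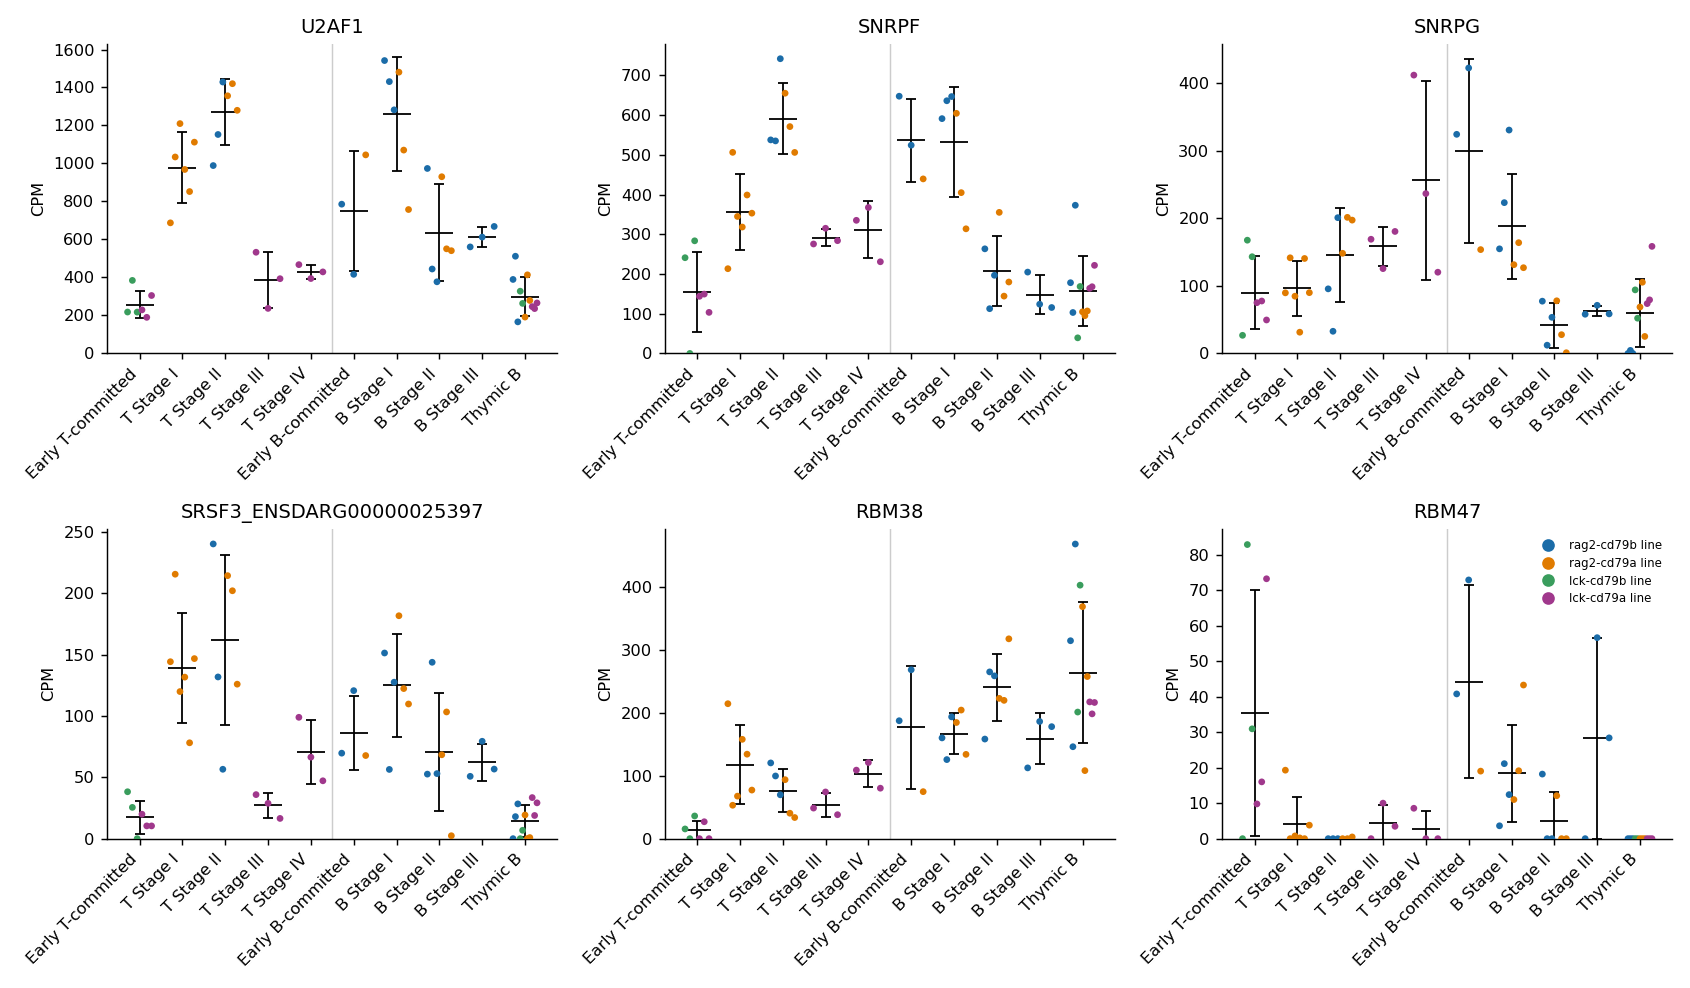
CPM of U2AF1, SNRPF, SNRPG, SRSF3_ENSDARG00000025397, RBM38 and RBM47 in each library by cell type. Points are libraries coloured by line, and bars are means with SD. U2AF1, SNRPF and the SRSF3 copy lie lower in thymic B cells of the rag2 lines than in every T Stage II library. Over all 11 thymic B libraries RBM38 averages 264 CPM and RBM47 is at 0.

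Fold changes below are log2 values between means of groups, with their standard error (SE). Adjusted p-values are from edgeR's quasi-likelihood test with Benjamini-Hochberg adjustment over all 14423 tested genes, and a gene is called at an adjusted p under 0.05. For comparisons within the rag2 lines the fold change is the mean of the differences within each line.

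From B Stage I to B Stage II, still in marrow, 2 of 125 splicing genes fell and none rose, where 0.964% of all genes fell. SNRPG, an Sm ring gene, lay between 127 and 330 CPM in the 6 B Stage I libraries with a median of 159 CPM. In the 6 B Stage II libraries it lay between 1.02 and 77.9 CPM with a median of 40.6 CPM. The groups did not overlap, and the change was -1.96 (SE 0.51, adjusted p = 0.0209). The call was lost without library 12, 14, 43 or 44. The other gene was hnrnpa0a, an hnRNP A/B gene, with 153 to 228 CPM (median 211 CPM) in B Stage I and 3.69 to 108 CPM (median 60.7 CPM) in B Stage II. Those groups did not overlap either, and the change was -1.85 (SE 0.49, adjusted p = 0.0231), which was lost without library 15 or 43. Neither gene was called in either rag2 line alone. The count of 2 fell to 1 without library 12 or 14 and to 0 without library 43. Across the families, all 11 snrp genes had a negative log2 fold change, with a median of -1.14, against -0.38 for all 125 splicing genes and -0.10 for all genes. Of the proliferation list, 11 of 17 rows fell in the same comparison, and the part of this in the splicing genes was not tested.

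No splicing gene was called from early B-committed cells to B Stage I, where 1.05% of all genes were. At an unadjusted p under 0.05 there were 4 splicing genes (3.2%, against 8.90% of all genes), all higher in B Stage I. DESeq2 called 13 (10.4%, against 24.1% of the genes to which it gave an adjusted p). The median log2 fold change of the 125 genes was 0.35 against 1.07 for all genes. In rag2-cd79a the early B-committed side of this comparison rests on library 36 alone. From B Stage II to B Stage III, tested in the rag2-cd79b line, again none was called, where 0.0277% of all genes were. In that comparison 11 splicing genes had an unadjusted p under 0.05 (8.8%, against 8.53% of all genes), 2 of them higher, and DESeq2 called 3 (2.4%, against 10.8%).

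Within the T lineage no splicing gene was called in any of the 3 steps. From T Stage I to T Stage II (rag2-cd79a) 0.0% of all genes were called, 2 splicing genes had an unadjusted p under 0.05 (1.6%, against 4.90% of all genes), both higher in T Stage II, and DESeq2 called 1 (0.8%, against 6.54%). All 11 snrp genes had a positive log2 fold change there, with a median of 0.69 against 0.00 for all genes. From early T-committed cells to T Stage III (lck-cd79a) 1.04% of all genes were called. At an unadjusted p under 0.05 there were 21 splicing genes (16.8%, against 13.3% of all genes), of which 17 were higher in T Stage III, and DESeq2 called 9 (7.2%, against 13.8%). Leaving out library 55 gave 2 called genes and leaving out library 56 gave 1. The median was 1.12 for the snrp genes against 0.42 for the whole set. This step also goes from marrow to thymus. Erythroid markers ran from 1279 to 5240 CPM in the early T-committed libraries of lck-cd79a and averaged 73.4 CPM in T Stage III. Stage, organ and other cells in the sort therefore cannot be told apart. From T Stage III to T Stage IV 0.0763% of all genes were called, 6 splicing genes had an unadjusted p under 0.05 (4.8%, against 7.11% of all genes), 4 of them higher in T Stage IV, and DESeq2 called 8 (6.4%, against 9.58%).

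Of the 12 comparisons, thymic B cells against T Stage II, both from the thymus of the rag2 lines, held the most called splicing genes. Of the 125 splicing genes, 22 (17.6%) were lower and 2 (1.6%) higher in thymic B cells, where 6.32% and 3.66% of all genes were. The median log2 fold change was -0.93 for the splicing genes and -0.99 for all genes, which include many rows that are 0 in thymic B libraries. Among genes averaging at least 5 CPM the medians were -0.91 and -0.68. With median-ratio scaling the calls over all genes split into 624 higher and 716 lower, against 528 and 911 with TMM, and those of the splicing genes into 2 and 15. DESeq2, counting both directions, called 28.0% of the splicing genes, against 35.0% of the genes to which it gave an adjusted p. In the main fit, 6 of 11 snrp genes were lower and none higher, with a median of -1.63. Of the hnrnp genes 6 of 24 were lower, and of the u2af genes 2 of 3. Of the proliferation list 14 of 17 rows were lower in the same comparison, and its part in these changes was not tested. These thymic B libraries also held fewer detected genes than every T Stage II library, as given above. The part of this in the changes was not tested.

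U2AF1 fell by more than the median splicing gene in this comparison. In the 6 T Stage II libraries it ran from 989 to 1429 CPM with a median of 1318 CPM. In the 6 thymic B libraries of the same lines it ran from 166 to 512 CPM with a median of 334 CPM. The groups did not overlap, and the log2 fold change was -1.81 (SE 0.33, adjusted p = 4.7e-06). SNRPF ran from 506 to 742 CPM (median 554 CPM) in T Stage II and from 95.1 to 373 CPM (median 106 CPM) in thymic B cells, a change of -1.83 (SE 0.40, adjusted p = 0.000317) without overlap. The other snrp genes called were SNRPG, SNRPB2 (the U2 snRNP protein B″), SNRPE, SNRPB and SNRPD1, and their changes ran from -3.70 to -1.41. SF3A3, of the SF3A complex, and LSM6 also fell, by 2.81 and 2.45 on the log2 scale.

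Both rows named SRSF3, a small SR protein that also serves mRNA export, were lower in thymic B cells. SRSF3_ENSDARG00000025397 ran from 56.6 to 240 CPM (median 167 CPM) in T Stage II and from 0 to 28.4 CPM (median 9.43 CPM) in thymic B cells, a change of -3.83 (SE 0.69, adjusted p = 4.78e-06). SRSF3_ENSDARG00000059360 ran from 215 to 645 CPM (median 432 CPM) and from 53.0 to 96.2 CPM (median 72.6 CPM), a change of -2.41 (SE 0.42, adjusted p = 1.98e-06). In neither row did the groups overlap. The 3rd srsf gene was SRSF1_ENSDARG00000057691, at -1.41 (SE 0.40, adjusted p = 0.0101).

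Of the hnRNP genes hnrnpul1l changed most, by -5.04 (SE 1.32, adjusted p = 0.00395), from 27.7 to 87.1 CPM in T Stage II to 3 of 6 thymic B libraries at 0 and 21.8 CPM in the highest. The smallest called change was that of HNRNPA1L2, at -0.86 (SE 0.27, adjusted p = 0.0224). U2AF2_ENSDARG00000012505 was at 0 in 3 of 6 thymic B libraries and between 2.66 and 84.3 CPM in T Stage II (-6.12, SE 2.08, adjusted p = 0.0388), and its call was lost without any one of 8 of the 12 libraries. The remaining lower genes were rbm34, hnrnpa0a, PRPF39, RBM25, hnrnpr, hnrnpa1a and hnrnpa0l.

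The 2 genes that were higher in thymic B cells were rbm genes. RBM38 ran from 108 to 469 CPM (median 287 CPM) in thymic B cells and from 33.6 to 121 CPM (median 81.8 CPM) in T Stage II. The groups overlapped between 108 and 121 CPM, and the change was 2.05 (SE 0.47, adjusted p = 0.000692). In a fit of the rag2-cd79b line alone RBM38 was not called, while in rag2-cd79a alone it was. The counts of rbm12ba were lower, with 0 to 54.7 CPM (median 30.0 CPM) in thymic B cells and 0 to 14.0 CPM (median 1.43 CPM) in T Stage II. Its change was 3.65 (SE 1.17, adjusted p = 0.0261), and the call was lost without any one of 6 of the 12 libraries, with DESeq2 (adjusted p = 0.102) and in each line alone. Of the 24 called genes, 13 (54.2%) had groups that did not overlap, against 47.6% of the 1439 called among all genes, and 12 had at least 1 library at 0 on the lower side. In each line alone 14 (rag2-cd79b) and 6 (rag2-cd79a) splicing genes were called.

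**Figure D4:**
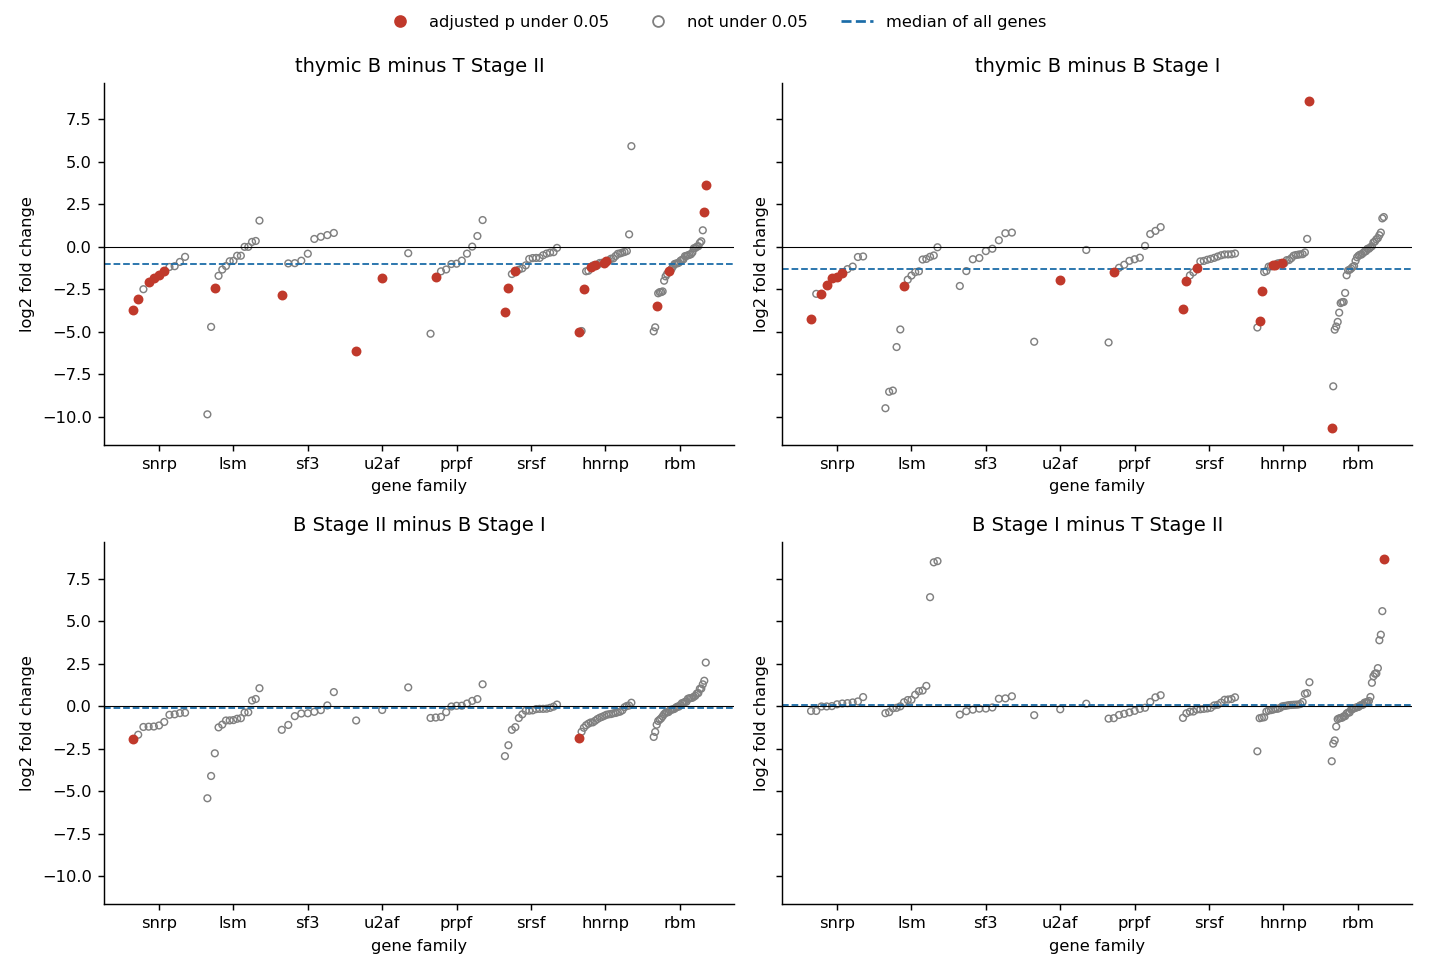
Log2 fold changes of the 125 splicing genes by family in 4 comparisons (thymic B minus T Stage II, thymic B minus B Stage I, B Stage II minus B Stage I, B Stage I minus T Stage II). Filled red points have an adjusted p under 0.05 and the dashed line is the median of all tested genes; 24, 19, 2 and 1 genes are filled in these comparisons.

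Thymic B cells were also set against B Stage I of marrow in the rag2 lines, a comparison that shares the thymic B libraries with the one above and crosses from thymus to marrow. Of the 125 genes, 18 (14.4%) were lower and 1 (0.8%) higher in thymic B cells, where 4.6% and 1.43% of all genes were. The median was -0.83 for the splicing genes and -1.28 for all genes. With median-ratio scaling 261 of all genes were higher and 501 lower, against 206 and 663 in the main fit, while the splicing genes split 1 and 13. DESeq2, counting both directions, called 28.0% of the splicing genes, against 33.6% of the genes to which it gave an adjusted p. Proliferation rows were lower in 14 of 17 cases in the main fit, and their part was not tested. The B Stage I libraries held 8892 to 10562 detected genes, more than each of these thymic B libraries. The part of this was not tested either. In each line alone 13 (rag2-cd79b) and 3 (rag2-cd79a) splicing genes were called.

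The lower genes again included 6 of 11 snrp genes. U2AF1 ran from 758 to 1542 CPM (median 1357 CPM) in B Stage I, against the thymic B values above, a change of -1.95 (SE 0.33, adjusted p = 2.97e-06) without overlap. SRSF3_ENSDARG00000025397 ran from 56.4 to 182 CPM (median 125 CPM) in B Stage I, a change of -3.65 (SE 0.69, adjusted p = 5.14e-05). SRSF3_ENSDARG00000059360 ran from 194 to 396 CPM (median 289 CPM), a change of -1.98 (SE 0.41, adjusted p = 0.000345). The hnRNP genes hnrnpa0a, hnrnpa0b, hnrnpa0l and HNRNPA1L2 changed by -2.59 to -0.94. For hnrnpul1l the change was -4.36 (SE 1.42, adjusted p = 0.0436), lost without any one of 8 of the 12 libraries.

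SNRPG was 0 in 2 of the 6 thymic B libraries and at most 105 CPM in the others, against 127 to 330 CPM in B Stage I (-4.23, SE 0.70, adjusted p = 2.45e-06). The lines differed in its size. In rag2-cd79b, where thymic B cells averaged 1.50 CPM, the change was -7.51 (SE 1.17), and in rag2-cd79a, where they averaged 66.4 CPM, it was -0.95 (SE 0.71). The difference between lines was 6.55 (SE 1.45, adjusted p = 0.0430). The 3 rag2-cd79b thymic B libraries detected 69, 100 and 95 splicing genes and the 3 rag2-cd79a ones 97, 103 and 105, and the part of this in the difference was not tested.

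RBM47, known in mammals as a cofactor of APOBEC1 RNA editing, was at 0 in all 6 thymic B libraries and at 3.63 to 43.3 CPM (median 15.8 CPM) in B Stage I. Taken against 3 counts per thymic B library it was at least 54.4-fold lower (adjusted p = 0.0278), and the call was lost without any one of 6 of the 12 libraries. The 1 higher gene was hnrnpa3, at 0 in 4 of 6 thymic B libraries, 38.5 CPM in the highest, and at most 0.250 CPM in B Stage I (adjusted p = 0.0411, lost without any one of 8 of the 12 libraries).

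Against B Stage II, 3 of 125 genes (2.4%) were lower in thymic B cells and none higher, where 0.957% of all genes were lower. SRSF3_ENSDARG00000059360 ran from 119 to 364 CPM (median 200.1 CPM) in B Stage II and did not overlap the thymic B libraries (-1.73, SE 0.41, adjusted p = 0.0107). SRSF3_ENSDARG00000025397 ran from 2.39 to 144 CPM (median 60.7 CPM) in B Stage II (-2.94, SE 0.70, adjusted p = 0.0102). U2AF2_ENSDARG00000012505, with 1 B Stage II library and 3 thymic B libraries at 0, changed by -6.68 (SE 1.90, adjusted p = 0.0431). These calls rest on single libraries: the first was lost without library 42, the second without library 43, and the third without any one of 10 of the 12. A fit to the compared libraries alone called none. The count rose to 5 without library 5. DESeq2, counting both directions, called 12.8% of the splicing genes, against 26.7% of the genes to which it gave an adjusted p. With median-ratio scaling the calls over all genes split into 68 higher and 81 lower, against 53 and 138 in the main fit.

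Between the B and T cells with the highest splicing gene levels, marrow B Stage I and thymic T Stage II, 1 of 125 genes (0.8%) was higher in B Stage I and none lower, where 3.4% of all genes were higher. The median log2 fold change was -0.02 for the splicing genes and 0.08 for all genes. The gene was RBM47, at 0 in 5 of 6 T Stage II libraries and 0.482 CPM in the other (adjusted p = 0.0103). It was not called in either line alone, and leaving out library 24 gave 2 called genes. In the other marrow populations RBM47 averaged 35.5 CPM in early T-committed cells, 44.3 CPM in early B-committed cells, 5.05 CPM in B Stage II and 28.4 CPM in B Stage III, and in T Stage I it averaged 4.01 CPM. Myeloid markers (6 rows) averaged 602 CPM in B Stage I and 24.1 CPM in T Stage II, and kidney tubule markers (11 rows) 920 and 78.8 CPM, and their part in the RBM47 level was not tested. B lineage and marrow cannot be told apart in this comparison.

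Thymic B cells and T Stage IV, both from lck-cd79a thymus, gave no called splicing gene, where 2.12% of all genes were called. At an unadjusted p under 0.05 there were 5 (4.0%, against 11.9% of all genes), of which 3 were higher in thymic B cells, and DESeq2 called 5 (4.0%, against 12.7%). The median was -0.29 for the splicing genes and -0.57 for the snrp genes, against 0.00 for all genes.

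Early B-committed and early T-committed cells were both sorted from marrow, and library 36 was the only early B-committed one of rag2-cd79a. CPM ranges and overlaps below are of the libraries as measured. These populations came from different red reporters, so for the fold changes the difference between rag2 and lck lines in thymic B cells was subtracted. On that basis 6 of 125 genes (4.8%) were higher in early B-committed cells and none lower, where 1.81% of all genes were higher. SNRPB ran from 305 to 549 CPM in the 3 early B-committed libraries and from 49.6 to 221 CPM (median 139 CPM) in the 6 early T-committed libraries, a change of 2.77 (SE 0.62, adjusted p = 0.00195) without overlap. SNRPG ran from 154 to 422 CPM and from 26.8 to 167 CPM, which overlap. Its change after the subtraction was 4.77 (SE 0.97, adjusted p = 0.000474). Its thymic B means, which enter that change, were 1.50 CPM (rag2-cd79b), 66.4 CPM (rag2-cd79a), 73.1 CPM (lck-cd79b) and 104 CPM (lck-cd79a). SNRPB2 ran from 105 to 191 CPM and from 0 to 51.5 CPM (4.38, SE 1.13, adjusted p = 0.0115), and its call was lost without thymic B library 19.

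PRPF19, the ubiquitin ligase of the complex named after it, ran from 135 to 172 CPM in early B-committed and from 0 to 83.8 CPM in early T-committed cells (3.49, SE 0.93, adjusted p = 0.0152). RBM38 ran from 74.8 to 269 CPM and from 0 to 36.1 CPM (3.43, SE 0.79, adjusted p = 0.00345). The last was rbm48, known in mammals as a factor of the minor spliceosome, at 0 in 4 of 6 early T-committed and 1 of 3 early B-committed libraries (adjusted p = 0.0402, lost without any one of 11 of 20 libraries). The median log2 fold change was 1.85 for the snrp genes, 0.63 for all 125 and 0.17 for all genes. Without the subtraction 13 splicing genes were called. Of the 6, SNRPB, SNRPB2, PRPF19 and RBM38 were still among them, while SNRPG (1.52, adjusted p = 0.128) and rbm48 (6.04, adjusted p = 0.236) were not. With the subtraction, leaving out thymic B library 6 gave 10. DESeq2, also with the subtraction, called 20.8% of the splicing genes, against 29.1% of the genes to which it gave an adjusted p. Within early T-committed cells the summed level itself differed between lines, at 10499 to 13504 CPM in lck-cd79b and 7854 to 9258 CPM in lck-cd79a.

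Genes of the spliceosome and its regulators whose symbols the rule does not take (154 rows from lists of 172 symbols) were counted in the same fits. Against T Stage II, 20 of 154 were lower and 1 higher in thymic B cells, where 6.32% and 3.66% of all genes were. Against B Stage I 18 (11.7%) were lower and none higher, where 4.6% and 1.43% of all genes were. These 18 included EFTUD2 and SNRNP200, of the U5 snRNP, and the helicases DHX8, DHX38 and DDX23. They also included GEMIN7, GEMIN8, gemin6, DDX20, CLNS1A and PRMT5, which help to load Sm rings onto snRNAs. By list, they were 6 of 16 gemin and related genes, 6 of 38 helicase and related genes and 4 of 24 snRNP genes. Of the regulators 2 of 64 (3.1%) were lower, and of the kinases 0 of 12. In early B-committed against early T-committed cells 5 were higher, where 1.81% of all genes were. They were CLNS1A, DDX20, DHX15, EFTUD2 and SNRNP200. In each of the other 9 comparisons at most 1 of the 154 was called.

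Many zebrafish splicing genes are present as paired copies, and the mean share of a copy differed between populations, in some cases with libraries that overlapped. SRSF3_ENSDARG00000025397 gave a mean of 32.3% of the counts of both SRSF3 rows in B Stage III and 29.8% in B Stage I, but 13.2% in thymic B cells, 9.88% in T Stage III and 8.90% in early T-committed cells. Its share ran from 16.1% to 45.7% in the B Stage III libraries and from 0 to 26.7% in the thymic B libraries, which overlap. Over all libraries it ran from 0 to 50.3% with a median of 21.8%. U2AF2_ENSDARG00000011740 gave a mean of 99.8% of the U2AF2 counts in early T-committed cells (99.0% to 100%) and 85.0% in B Stage II (75.4% to 100%). In the srsf2a and srsf2b pair, srsf2a gave 96.3% in B Stage II and 76.7% in T Stage I. The first copy of HNRNPAB, HNRNPAB_ENSDARG00000007960, stayed the larger in most libraries, with a median share of 62.2% and a range of 42.3% to 84.4%. Of hnrnpa0a and hnrnpa0b, hnrnpa0a gave 30.1% in T Stage II and 11.0% in T Stage IV. The remaining pairs with both copies at 10 CPM or more were those of SRSF1, SRSF6, HNRNPU, HNRNPK, srsf10, rbm12b and rbm14, of which HNRNPK, srsf10, rbm12b and rbm14 ran from 0 to 100% in single libraries. Copies with similar 3′ ends can share reads, so the values of a single copy are uncertain, and the shares were not tested.

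**Figure D5:**
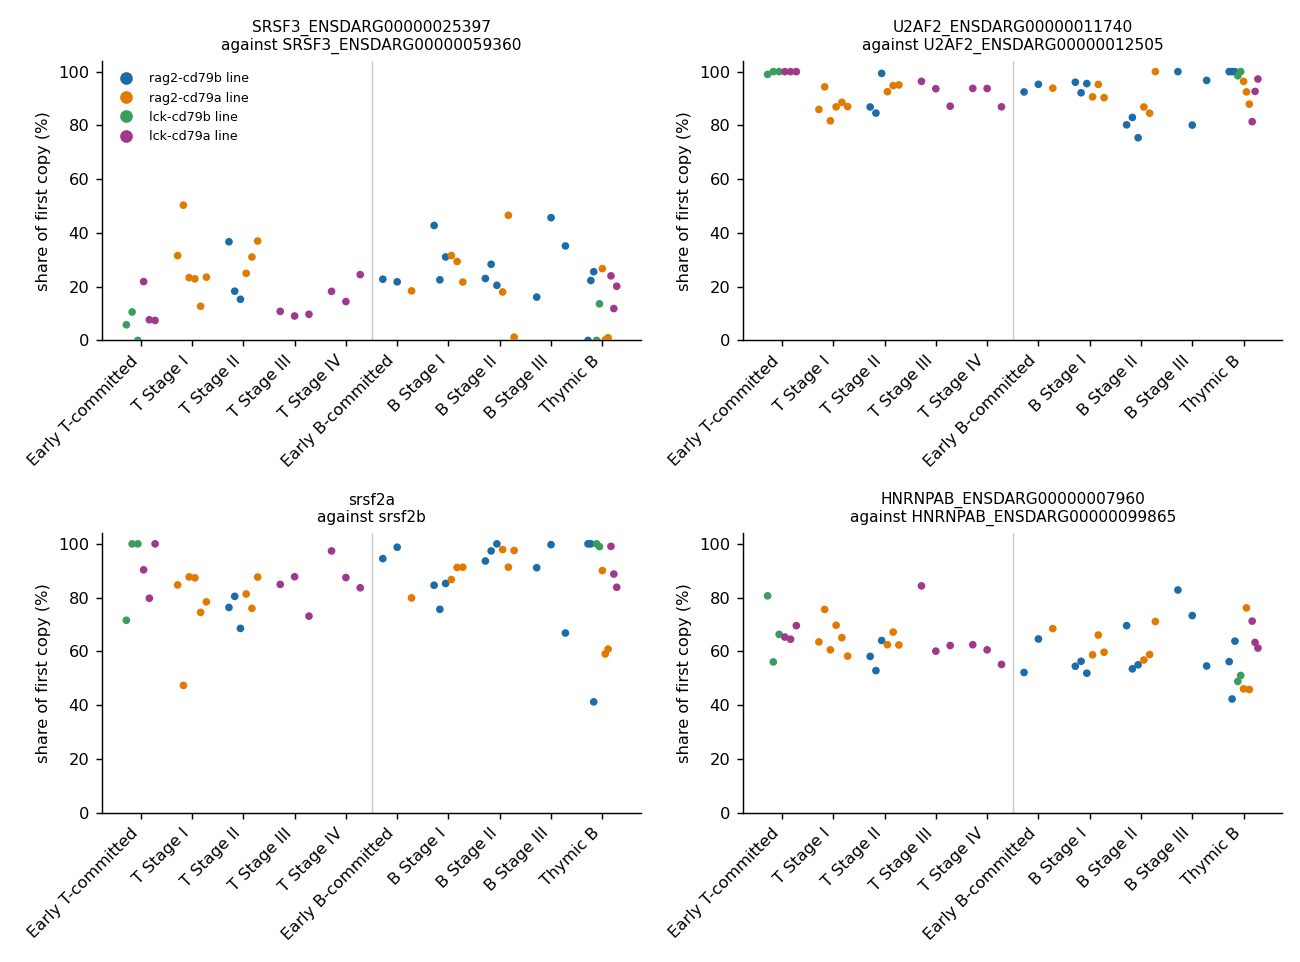
Share of the first copy in the counts of its pair (percent) in each library by cell type, for the SRSF3, U2AF2, srsf2a and srsf2b, and HNRNPAB pairs. The SRSF3 share is lowest in early T-committed cells (mean 8.90%) and highest in B Stage III (mean 32.3%).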

How the data were processed

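Libraries were made with a QuantSeq FWD kit, which reads the 3′ end of each transcript, per the labels' protocols. The authors deposited raw counts per gene, which were used for every result; other deposited tables of normalised values were not used. The submitters' processing notes name STAR, featureCounts, FastQC 0.11.8, DESeq2 1.38.3 and the build GRCz11, without their settings. Symbols came from a table of identifiers: 13909 of 14423 gene identifiers had one. A population spelled "T State III" in the labels was read as T Stage III. No genome was used here, so neither coordinates nor sequences are given.

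CPM were computed over all 14424 rows, the gfp transgene included, which was not tested. Cell type means and SDs are over libraries, and the mean of a gene is over the 10 cell type means. The test was that of edgeR 4.0.16 under R 4.3.3 (TMM, robust quasi-likelihood fit, 1 mean for each of the 19 groups of line and population, all 53 libraries), with Benjamini-Hochberg adjustment over 14423 genes and a threshold of 0.05. The fit was also run on simulated counts for thymic B cells against T Stage II (14245 genes). It recovered 76% of genes changed by 2 and 100% of genes changed by 3 on the log2 scale, with 9 false calls. The simulation gave every gene the same variability between libraries and the same mean in all groups before the change. Only genes averaging at least 10 CPM were changed, so these rates need not hold for the real counts or for low genes. Alternatives were median-ratio size factors, no filter, a mean of at least 5 CPM, a fit to the compared libraries alone, DESeq2 1.42.0 and leaving out each library. Chosen after seeing the data were the fits of each rag2 line alone, their difference, and the early B-committed comparison without subtraction.

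The genes named were, in each comparison, up to 3 called genes per direction with the largest log2 fold change and at least 10 CPM on the higher side, all called genes where 5 or fewer were called, in each family the 2 highest genes and the gene with the largest ratio between cell types, and paired copies at 10 CPM or more. That rule named 48 genes, 1 of which is not reported here; any further gene was picked with its values known. The splicing genes, the lists and the tests were chosen with earlier results of these data known.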

Additional observations from a re-analysis of the deposited data

Results flagged for a closer look

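Within each cell type of 4 to 10 libraries, single libraries that stood off from the rest were looked for in 278 sets of values of the named genes and family sums, by Dixon's criterion (0.625 of the range for 6 libraries). It marked 30. Chance marks about 1 in 20 where values follow a normal distribution. Sets that are mostly 0 can be marked by a few counts, as for hnrnpa3 in B Stage I (0.250 CPM, all others 0). The 30 therefore cannot be set against that rate. Thymic B cells, with 11 libraries, were not examined. No cause was tested.

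In early T-committed cells 12 of these were high values of lck-cd79b libraries. Library 21 held hnrnpa0a at 545 CPM, SRSF3_ENSDARG00000059360 at 619 CPM, HNRNPK_ENSDARG00000007034 at 222 CPM, srsf2b at 109 CPM, srsf10a at 15.6 CPM, U2AF2_ENSDARG00000012505 at 3.09 CPM and SF3B5 at 1.80 CPM. Library 22 held LSM1 at 138 CPM and srsf10b at 152 CPM. Library 23 held HNRNPU_ENSDARG00000015206 at 135 CPM and the highest family sums of prpf (840 CPM) and rbm (1939 CPM). In lck-cd79a, library 54 held rbm48 at 22.2 CPM.

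In T Stage II, library 1 was low for HNRNPA1L2 (1351 CPM) and srsf5a (227 CPM). Library 2 was high for HNRNPK_ENSDARG00000007034 (179 CPM), and library 3 for hnrnpa3 (9.09 CPM), rbm48 (19.3 CPM) and LSM6 (318 CPM). Library 25 was high for LSM4 (311 CPM) and rbm12bb (80.1 CPM), and library 26 for RBM47 (0.482 CPM). In T Stage I, library 27 was high for RBM47 (19.3 CPM) and rbm48 (22.8 CPM), and library 29 for hnrnpa3 (1.15 CPM) and SF3B5 (13.6 CPM).

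In B Stage I, library 11 was high for hnrnpul1l (100.4 CPM) and hnrnpa3 (0.250 CPM), and library 40 was low for LSM6 (97.1 CPM). In B Stage II, library 44 was high for HNRNPK_ENSDARG00000007034 (150.2 CPM).

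For SNRPG, the difference between thymic B cells and B Stage I was smaller in rag2-cd79a than in rag2-cd79b by 6.55 on the log2 scale (SE 1.45, adjusted p = 0.0430). It was the only one of the 125 genes whose change differed between the lines at that threshold in a comparison made in both.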

How the results depend on the processing

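No paired analysis was possible because every library has its own number in the labels, so that no number is shared between groups. Of 18 called changes of named genes, none reversed in 362 values under alternatives. Of these values, 240 came from leaving out a library, in fits that shared all other libraries with the main fit. Of the 240, 174 stayed past the threshold and 66 did not. With the compared libraries alone 11 of 18 stayed, with median-ratio size factors 14 of 18 and with DESeq2 17 of 18. Without a filter 18 of 18 stayed, and with a mean of at least 5 CPM 17 of 17. In rag2-cd79b alone 6 of 15 stayed and in rag2-cd79a alone 2 of 15, with fewer libraries per fit. Without the subtraction of the line difference 2 of 3 were lost.

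The number of splicing genes called moved by more than 1.5 times in these cases. DESeq2 called 13 from early B-committed cells to B Stage I, 7 from B Stage I to II, 3 from B Stage II to III, 1 from T Stage I to II, 9 from early T-committed cells to T Stage III and 8 from T Stage III to IV. For thymic B cells it called 35 against B Stage I, 16 against B Stage II and 5 against T Stage IV; for B Stage I against T Stage II it called 5 and for early B-committed against early T-committed cells 26. Over the 12 comparisons it called 6.54% to 35.0% of the genes to which it gave an adjusted p. In each of the 12 its share of the splicing genes was smaller than its share of those genes. A fit to the compared libraries alone called 12 from B Stage I to II, 0 for thymic B cells against B Stage II, 5 for B Stage I against T Stage II and 2 for early B-committed against early T-committed cells. Genes averaging at least 5 CPM gave 5 from B Stage I to II and 2 for B Stage I against T Stage II. In rag2-cd79b alone there were 0 from B Stage I to II, 14 for thymic B cells against T Stage II and 0 for B Stage I against T Stage II. In rag2-cd79a alone these were 0, 6 and 0, with 3 for thymic B cells against B Stage I and 0 against B Stage II. Without the subtraction of the line difference 13 were called in early B-committed against early T-committed cells.

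With a library left out, counts ran from 0 to 3 for B Stage I to II, 14 to 23 for thymic B cells against B Stage I, 1 to 5 against B Stage II, 17 to 28 against T Stage II, 0 to 2 for early T-committed cells to T Stage III, 1 to 2 for B Stage I against T Stage II and 5 to 10 for early B-committed against early T-committed cells. Dividing counts by median-ratio size factors moved the summed level, as a percent of the mean of the 10 cell types, from 117 to 105 in T Stage I, from 143 to 126 in T Stage II and from 73.7 to 80.7 in B Stage III. Levels under 0.411 CPM are at or below 3 counts in the shallowest library. The causes were not tested.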

Other observations

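Among the 125 genes, LSM10 and LSM14B were counted in some marrow libraries and nowhere else. LSM10, a ring protein of the U7 snRNP that processes histone mRNA, had counts in 6 of 53 libraries, with means of 3.83 CPM in B Stage I, 0.354 CPM in B Stage II and 2.76 CPM in B Stage III. LSM14B, a cytoplasmic RNA-binding protein, averaged 4.62, 1.59 and 9.24 CPM in the same populations and was at 0 in every library of the other 7 cell types. Their highest libraries reached 12.1 CPM and 27.7 CPM. Kidney tubule markers averaged 920 CPM in B Stage I, 171 CPM in B Stage II and 1587 CPM in B Stage III, and their part in these counts was not tested. LSM2, a ring protein of U6, had counts in 13 of 53 libraries from both marrow and thymus. In thymus it averaged 3.66 CPM in T Stage I population T3 and 2.55 CPM in T Stage IV. It was at 0 in all 6 early T-committed libraries, averaged at most 5.66 CPM in any cell type and reached 24.9 CPM in its highest library.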
